A study of Homo sapiens with 54 samples.

Results

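The comparison described here asked how gene expression differed when macrozamin was left out of a compound Kushen injection (CKI) mixture that already lacked oxymatrine and oxysophocarpine. Its members were chosen by their labels: 3 libraries of treatment N_3 (CKI without macrozamin, oxymatrine and oxysophocarpine) and 3 of treatment N_2 (CKI without oxymatrine and oxysophocarpine), all from batch 1 at 48 h, which makes 6 of the 54 libraries of the series. Both treatments were given to MDA-MB-231 cells at the equivalent of 2 mg/ml CKI, and both were mixtures put back together after fractionation, so that they share the missing alkaloids and the handling and differ by macrozamin. Every difference below is N_3 minus N_2, and a positive value therefore stands for a higher level when macrozamin was absent. For reference, levels are also given in untreated cells (UT) and in cells that received CKI, which was not fractionated, in the same batch at 48 h, with 3 libraries each. The same removal was present in 3 further settings with 3 libraries a group: N_3 and N_2 at 24 h, oxymatrine and oxysophocarpine alone (OO) against the same pair with macrozamin (MOO) at 48 h, and CKI without macrozamin alone (N_Mac) against CKI at 48 h in batch 2.

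MDA-MB-231 is an established line of triple-negative breast cancer with a mesenchymal character. CKI is an aqueous extract of Kushen and Baituling roots used alongside chemotherapy, and oxymatrine and oxysophocarpine are alkaloids of Kushen. Macrozamin is a glycoside of methylazoxymethanol, a compound first known from cycads. When a beta-glucosidase removes the sugar, methylazoxymethanol breaks down to a methylating agent that can alkylate DNA. DNA methylated in this way is repaired by base excision enzymes and by MGMT, the methyltransferase that takes methyl groups off guanine, and damaged cells commonly raise p53 target genes. These 2 groups of genes were therefore listed alongside stress, growth and migration genes.

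Between 20073324 and 23780547 reads were counted per library in the 6 libraries. All 8 markers of the MDA-MB-231 state exceeded 10 CPM (counts scaled to library size) in each of them, with a summed level of 2480 to 2510 CPM in N_2 and 2830 to 3530 CPM in N_3. The oestrogen and progesterone receptor genes had at most 2 counts in any library, and the 4 HEK-293 markers stayed under 1 CPM. Summed levels of the other marker lists also moved: the 6 fibroblast markers were at 84.8 to 91.5 CPM in N_2 and 35.4 to 39 CPM in N_3, with DCN at no more than 1 count, and the 4 leukocyte or endothelial markers were at 239 to 261 and 328 to 398 CPM, carried by CD68, with PTPRC at no more than 9 counts. The 6 luminal markers summed to 88.6 to 92.5 CPM in N_2 and 66.1 to 76.5 CPM in N_3. Unlike the 2 receptor genes, 3 of them exceeded 10 CPM in all 6 libraries. These were ERBB2 (33.6 to 42.9 CPM), EPCAM (18.6 to 27.6 CPM) and GATA3 (10.9 to 18.5 CPM). N_3 replicate 2 stood apart from its group, with 161 of 13332 genes more than 2-fold from the other replicates against 0 to 15 in the other 5 libraries. It also carried more mitochondrial ribosomal RNA, with RNR2 at 28900 CPM against 13000 and 13900 CPM in the other N_3 libraries and 11300 to 11700 CPM in N_2. The part of this library in the results was not tested beyond the values given without it.

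Removal of macrozamin went with differences across much of the transcriptome, about as many upward as downward. Of 14824 genes tested, 5806 (39.2%) were called at an adjusted p under 0.05 (edgeR's quasi-likelihood test, p-values adjusted after Benjamini and Hochberg), 2912 (19.6%) higher and 2894 (19.5%) lower in N_3. In 7700 genes (51.9%) the levels of the 2 groups did not overlap. Large differences were mostly downward: 1201 genes (8.1%) were both called and more than 2-fold apart, 212 higher and 989 lower. These lower genes had a median level of 2.09 CPM, the higher ones 9.16 CPM and all tested genes 21.7 CPM. The balance of the 2 directions depended on the scaling. With library sizes alone in place of the trimmed mean of M-values (TMM), 1752 genes were higher and 3867 lower, and the median of all genes was -0.13 on the log2 scale instead of near 0. Without N_3 replicate 2, 7776 of 15129 genes (51.4%) were called, 3833 higher and 3943 lower. List counts given below without that library stand beside this larger share. The labels call the 3 libraries of a group biological replicates, and the p-values measure the spread between them. In bulk RNA a smaller number of cells in a state and less RNA per cell cannot be told apart.

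**Figure D1:**
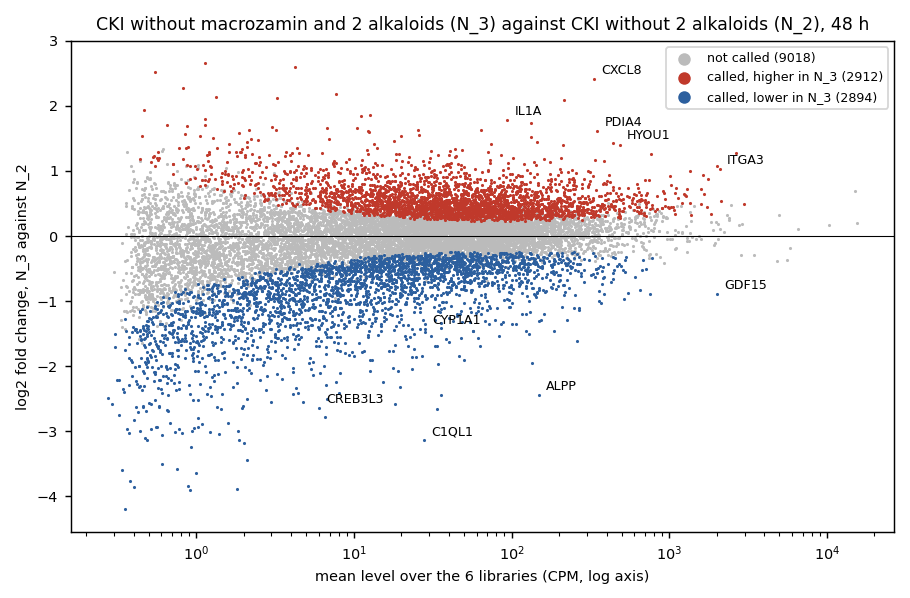
Log2 fold change (N_3 against N_2, 48 h) plotted over the mean level of each gene in CPM on a log axis, 1 point per gene tested. Red points are the 2912 genes called higher, blue points the 2894 called lower and grey points the rest; the points furthest from 0 lie mostly below it and at low levels.

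Chaperones of the endoplasmic reticulum, which fold secreted proteins and are raised by the unfolded protein response, were higher without macrozamin. Of 17 listed members, 16 rose, none fell, and the median log2 fold change was 0.94 against a median near 0 over all genes. Without N_3 replicate 2 all 17 were called higher. PDIA4, a disulphide isomerase, was at 159, 179 and 179 CPM in the N_2 libraries and at 530.0, 570 and 482 CPM in the N_3 libraries. The groups were far apart, and the log2 fold change was 1.62 (SE 0.107, adjusted p = 9.86e-06). HYOU1, a large chaperone of the same compartment, was at 257, 265 and 277 CPM in N_2 and 708, 774 and 633 CPM in N_3, a difference of 1.41. HSPA5, the central sensor and chaperone BiP, was at 1471, 1592 and 1606 CPM and then at 3812, 3837 and 3611 CPM, with a log2 fold change of 1.27 (SE 0.117, adjusted p = 4.31e-05). In these 3 genes every N_3 library was above every N_2 library. MANF, a secreted stress protein, rose by 1.13, HSP90B1, the chaperone GRP94, by 1.26, and XBP1, a transcription factor of this response, by 0.72. CRELD2 was the member that was not called, at 0.30 (adjusted p = 0.118).

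The promoters of this list are shown because a known regulatory element can be read in several of them. The ER stress response element was searched as CCAAT and CCACG with 9 bases of any kind between them, on both strands within 250 bases upstream of RefSeq start sites (GRCh38.p14, whereas the counts were made on hg19). It was present in 6 of the 20 promoters of the 17 genes (30%), against 26 of 35116 promoters overall (0.074%), and in 0 of 15 promoters of the cytokine list described next. HSPA5, HSP90B1, CALR, PDIA6, XBP1 and CRELD2 held it, and PDIA4 and HYOU1, with the largest differences, did not. Matches are descriptions of letters and not of bound sites. The share follows from which genes were listed and not from their levels, so it is no test of the differences above. The stretches below run 5′ to 3′ on the strand of the gene, with the element in capitals, and lie at chr9:125241379-125241421 (minus strand) for HSPA5, chr12:103930204-103930351 (plus) for HSP90B1, chr22:28800591-28800633 (minus) for XBP1, chr2:10812841-10812883 (minus) for PDIA6 and chr22:49918542-49918584 (plus) for CRELD2. HSP90B1 holds 2 matches, and in CRELD2 the element is on the other strand.
HSPA5: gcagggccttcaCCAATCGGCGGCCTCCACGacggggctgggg
HSP90B1: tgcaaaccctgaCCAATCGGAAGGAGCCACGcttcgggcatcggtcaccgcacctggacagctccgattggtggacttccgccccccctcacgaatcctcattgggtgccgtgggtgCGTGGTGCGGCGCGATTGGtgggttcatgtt
XBP1: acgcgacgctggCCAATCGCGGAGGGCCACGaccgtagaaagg
PDIA6: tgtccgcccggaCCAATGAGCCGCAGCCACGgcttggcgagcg
CRELD2: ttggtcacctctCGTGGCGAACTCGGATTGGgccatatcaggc

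Secreted cytokines and the feedback genes of NF-kB, the transcription factor behind many inflammatory signals, formed the list with the highest median, 1.12. Of 17 members, 16 rose and 1 fell (IL11, -0.34), with the same counts without N_3 replicate 2. CXCL8, the neutrophil chemokine interleukin 8, was at 68.2, 121 and 129 CPM in N_2 and 603, 467 and 616 CPM in N_3. All N_3 libraries exceeded all N_2 libraries, and the log2 fold change was 2.41 (SE 0.218, adjusted p = 3.93e-05). IL1A, an interleukin released by stressed cells, was at 39.9, 44.6 and 43.2 CPM in N_2 and at 139, 127 and 171 CPM in N_3, a log2 fold change of 1.78 (SE 0.122, adjusted p = 1.12e-05). CSF3, a granulocyte growth factor, was low in both groups, at 0.882, 1.14 and 1.59 CPM and then at 8.83, 5.69 and 7.15 CPM, a log2 fold change of 2.60. A smaller margin was seen for IL6, an acute-phase cytokine, at 69.0, 90.3 and 89.8 CPM in N_2 and 145, 95.5 and 175 CPM in N_3, where the lowest N_3 library was close to the N_2 libraries. Its log2 fold change was 0.74 (SE 0.192, adjusted p = 0.0113), and the call was lost without N_2 replicate 1 (0.62, adjusted p = 0.0648). Among the NF-kB genes, RELB rose by 1.12, BIRC3 by 0.75, NFKBIA by 0.43 and TNFAIP3 by 0.29. IL24, a cytokine of the interleukin 10 family, rose by 1.73. CXCL1 and CXCL3 rose by 1.67 and 2.18, but these chemokines are near-identical copies whose reads may be split between them, and N_3 replicate 2 was the lowest N_3 library for both.

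Promoters of the cytokine list are shown for the same reason. The NF-kB motif, searched as GGNNTTTCC on both strands in the same window, was found in 10 of 15 promoters of 14 genes (66.7%) and in 5.48% of all promoters, and in 2 of the 20 chaperone promoters. Capitals mark the motif, and the stretches lie at chr4:73740466-73740498 (plus) for CXCL8, chr4:73869303-73869360 (plus) for CXCL1, chr4:74038722-74038779 (minus) for CXCL3 and chr7:22727116-22727148 (plus) for IL6. CXCL1 and CXCL3 each hold 2 matches in nearly the same surroundings. This share, too, follows from which genes were listed and not from their levels.
CXCL8: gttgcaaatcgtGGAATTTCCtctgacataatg
CXCL1: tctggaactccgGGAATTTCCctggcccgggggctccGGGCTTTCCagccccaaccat
CXCL3: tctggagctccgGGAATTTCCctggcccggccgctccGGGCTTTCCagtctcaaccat
IL6: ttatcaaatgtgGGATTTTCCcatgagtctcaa

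Set beside untreated cells, the 2 lists started from different places. Against untreated cells 11141 of 15119 genes (73.7%; 36.9% higher, 36.8% lower) were called in N_2 and 10191 (67.4%; 33.8% higher, 33.6% lower) in N_3. Chaperones were lower in N_2 than in untreated cells, with 4 of 17 called higher, 11 lower and a median of -0.58, whereas in N_3 11 were higher and 1 lower, with a median of 0.46. PDIA4 averaged 381 CPM in untreated cells and 336 CPM with CKI, between the 2 mixtures. Of 18 cytokine genes 13 were higher and 2 lower than in untreated cells in N_2, with a median of 1.18, and 16 were higher and 2 lower in N_3, with a median of 2.70. CXCL8 averaged 26.3 CPM in untreated cells and 22.4 CPM with CKI. These comparisons share the untreated libraries with each other and the mixtures with the main comparison.

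**Figure D2:**
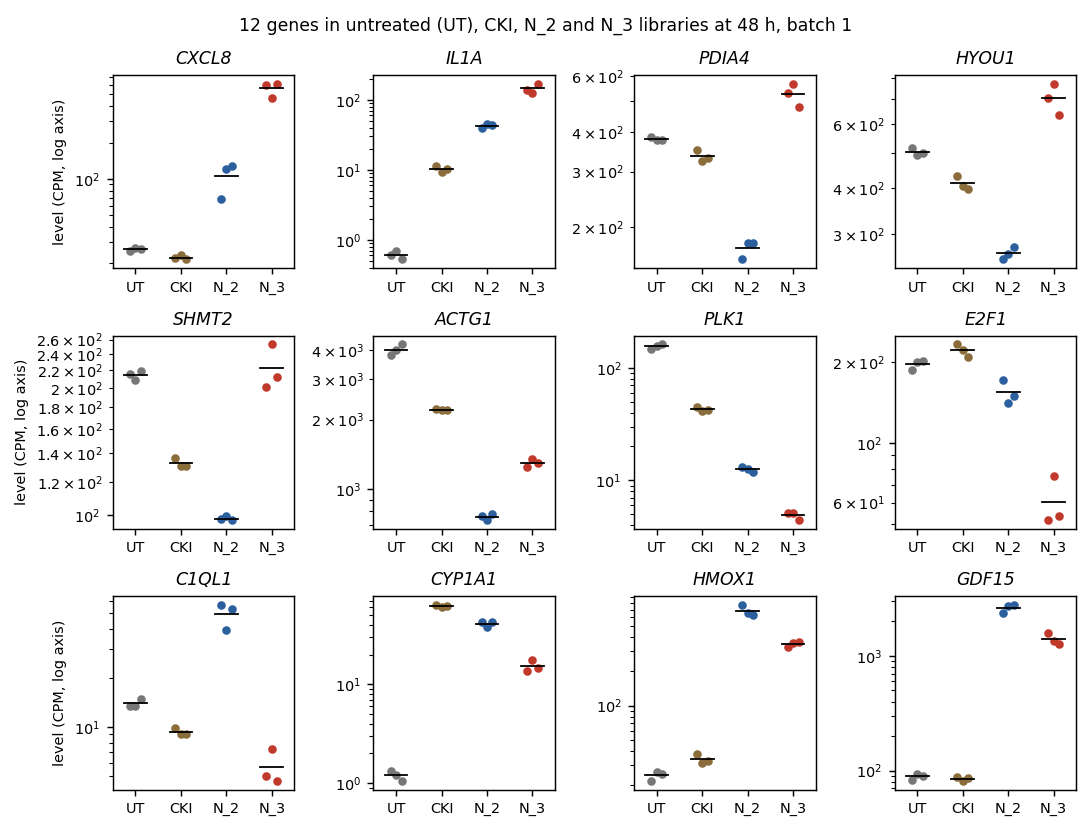
Levels of 12 genes in CPM on log axes in the 3 libraries each of untreated cells (UT), CKI, N_2 and N_3 at 48 h, batch 1; points are libraries and bars are group means. The 12 were picked among genes named for a small p or a large change, and N_2 and N_3 do not overlap in any of them. Over all genes tested, the levels of N_2 and N_3 do not overlap in 51.9%. HMOX1 and GDF15 are far above untreated cells in both mixtures.

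Genes of the ATF4 and CHOP branch of the stress response, which handle amino acid supply, rose in part. Of 20 members 11 were higher and 2 lower (VLDLR at -0.48 and STC2 at -0.47), with a median of 0.35. The largest differences were in enzymes of serine and one-carbon metabolism. SHMT2, the mitochondrial serine hydroxymethyltransferase, was at 97.9, 99.3 and 97.5 CPM in N_2 and 201, 253 and 212 CPM in N_3, with no overlap and a log2 fold change of 1.18 (SE 0.104, adjusted p = 3.39e-05). PSAT1, an enzyme of serine synthesis, rose by 1.02 and MTHFD2, of the mitochondrial folate pathway, by 0.68. ATF4 itself (0.13, adjusted p = 0.326) and DDIT3, which encodes CHOP (0.21, adjusted p = 0.37), did not pass the test.

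Of 82 cytosolic ribosomal protein genes 44 were higher and 0 lower, with a median of 0.40, and under library sizes alone 26 were higher and 0 lower. N_3 replicate 2 bore on this count. Its own list median against the mean of N_2 was 0.11, against 0.34 and 0.62 in the other N_3 libraries, and without it 76 of the 82 were called higher. RPL4, a protein of the large subunit, was at 502, 502 and 486 CPM in N_2 and 833, 923 and 959 CPM in N_3, a log2 fold change of 0.87. Genes of the respiratory chain and its assembly factors had 30 higher and 2 lower of 91, with a median of 0.24. The share of calls was 35.2%, against 39.2% of all genes. Without N_3 replicate 2 the counts were 55 and 3, and under library sizes alone 11 and 3. The 2 that fell were COX6B2 and NDUFA6-DT, a divergent transcript that the symbol rule took in (-0.95). The gene with the smallest p in this list was COX6B2, a testis-type subunit of cytochrome oxidase, at 10.1, 8.63 and 11.3 CPM in N_2 and 3.11, 4.09 and 3.05 CPM in N_3, against the direction of its list.

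Proliferation genes were lower without macrozamin. Of 20 genes of mitosis and cytokinesis, 17 fell, none rose, and the median was -0.69, with 19 called lower without N_3 replicate 2. PLK1, a kinase that drives entry into mitosis, was at 13.1, 12.5 and 12.0 CPM in N_2 and 5.09, 5.10 and 4.45 CPM in N_3. The log2 fold change was -1.36 (SE 0.128, adjusted p = 4.63e-05), from a level that was already low, since PLK1 averaged 155 CPM in untreated cells and 42.7 CPM with CKI. TOP2A, the topoisomerase of dividing cells, fell by 0.96 and CDC20, an activator of the anaphase-promoting complex, by 0.88 on the log2 scale. In the list of DNA replication and nucleotide supply 14 of 26 fell and 2 rose, with a median of -0.41. E2F1, a transcription factor of S phase entry, was at 173, 141 and 150 CPM in N_2 and 51.7, 75.4 and 53.5 CPM in N_3, a log2 fold change of -1.36 (SE 0.143, adjusted p = 8.37e-05). The licensing factors CDT1 and MCM10 fell by 1.23 and 1.61, MCM10 from about 2 to 3 CPM. POLA1, a subunit of the priming polymerase, was among the members that rose (0.81). Relative to untreated cells all 20 mitosis genes were called lower in both mixtures, with medians of -2.51 in N_2 and -3.04 in N_3.

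Genes tied to the chemistry of macrozamin gave a mixed picture. The p53 target list had 3 of 23 higher and 4 lower, with a median of -0.08. Its share of calls was 30.4%, against 39.2% of all genes. Whether p53 is active in this line was not tested, so the list alone cannot show whether DNA damage differed. TNFRSF10B, a death receptor (0.46), AEN, an apoptosis nuclease (0.40), and CCNG1, cyclin G1 (0.36), rose, and BTG2, an antiproliferative factor (-1.15), FDXR, ferredoxin reductase (-0.59), and GADD45A, a stress sensor (-0.52), fell beside GDF15. CDKN1A, the p53-induced inhibitor of the cell cycle, was at 1122, 1060 and 1036 CPM in N_2 and 1056, 1170 and 1039 CPM in N_3, with overlapping groups and a log2 fold change of 0.02 (adjusted p = 0.883). GDF15, a stress cytokine also counted among p53 targets, fell from 2382, 2706 and 2768 CPM to 1585, 1359 and 1277 CPM, a log2 fold change of -0.89 (SE 0.13, adjusted p = 0.000517). Of 17 genes of base excision and alkylation repair 2 rose and 6 fell (47.1% called), with a median of 0.03 that turned to -0.10 under library sizes alone. APEX1, the endonuclease that cuts at abasic sites, rose by 0.61 and TDG, a DNA glycosylase, by 0.43. POLB, the polymerase that fills the gap, fell by 0.64 and FEN1, a flap nuclease of repair and replication, by 0.63. MGMT had 0 counts in all 6 libraries, which allows a level of up to 0.126 to 0.149 CPM per library by counting error alone. Of enzymes that split glycosides, GBA2, a beta-glucosidase (0.11), and GUSB, the lysosomal beta-glucuronidase (-0.15), did not pass the test, and the value of GBA2 changed sign under library sizes alone.

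Among detoxification genes the members with the smallest p fell, while their lists as a whole had calls in both directions. CYP1A1, the monooxygenase that is the classical target of the aryl hydrocarbon receptor, was at 42.8, 38.4 and 42.3 CPM in N_2 and 13.5, 17.8 and 14.5 CPM in N_3. Its log2 fold change was -1.43 (SE 0.118, adjusted p = 2.66e-05), from 1.20 CPM on average in untreated cells and 61.9 CPM with CKI. Over the 8 genes of the receptor list 2 rose and 2 fell (50% called), with a median of 0.01 (-0.12 and 0 higher under library sizes alone). ALDH3A1, an aldehyde dehydrogenase, fell by 1.84 from about 2 CPM, and TIPARP, a feedback inhibitor of the receptor, rose by 0.23. Among 23 targets of NRF2, the factor that answers oxidative stress, 6 rose and 3 fell, and the 3 that fell were the members with the smallest p. The share of calls in this list was 39.1%, against 39.2% of all genes. Without N_3 replicate 2 the counts were 9 and 5, or 60.9% called against 51.4% of all genes. HMOX1, haem oxygenase, was at 767, 650 and 632 CPM in N_2 and 329, 354 and 367 CPM in N_3 (log2 fold change -0.96, adjusted p = 0.000132). The aldo-keto reductases AKR1C2 and AKR1B10 fell by 1.29 and 1.28, with the reads of AKR1C2 possibly shared with its paralogs. NQO1, a quinone reductase on both lists, was called at 0.30 (adjusted p = 0.031), and lost the call under library sizes alone (0.17), with the replicate block and when any of 4 libraries was left out.

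Of 5 metallothioneins and the zinc exporter SLC30A1, 0 rose and 3 fell, with a median of -0.50. SLC30A1 fell by 0.70 and MT1F by 1.15, while MT1M (-1.43) lost its call when N_3 replicate 1, N_2 replicate 1 or N_2 replicate 3 was left out. All 6 had risen strongly against untreated cells, with medians of 3.76 in N_2 and 3.01 in N_3. In the heat shock list 1 of 13 rose and 1 fell, or 15.4% called against 39.2% of all genes. HSPD1, the mitochondrial chaperonin, rose by 0.56 and HSPB1, a small heat shock protein, fell by 0.65. Without N_3 replicate 2 the counts were 4 and 5, or 69.2% called against 51.4% of all genes. Under library sizes alone they were 1 and 5.

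Genes of the cytoskeleton and of cell attachment were examined because the study concerned migration. The list of actin cytoskeleton genes and targets of serum response factor had 11 of 24 higher and 0 lower, with a median of 0.36. Without N_3 replicate 2 the counts were 11 and 2, with a median of 0.21. Under library sizes alone they were 8 and 1, with a median of 0.23. The list medians of N_3 replicates 1 to 3 against the mean of N_2 were 0.32, 0.44 and 0.16. ACTB, cytoplasmic beta-actin, was at 1748, 1767 and 1701 CPM in N_2 and 2390, 2515 and 2644 CPM in N_3, a log2 fold change of 0.54 (SE 0.112, adjusted p = 0.00374), and ACTG1, its gamma counterpart, rose by 0.78, with reads that may be shared between them. Of 16 integrin subunits 4 rose and 4 fell, or 50% called against 39.2% of all genes. ITGA3, a laminin receptor subunit, was at 1318, 1391 and 1418 CPM in N_2 and 2654, 3438 and 2324 CPM in N_3 (log2 fold change 1.03), and ITGA2, ITGA6 and ITGAV rose by 0.61, 0.52 and 0.38, while ITGB8, ITGA7, ITGB5 and ITGB2 fell by 1.95, 1.45, 0.50 and 0.44. The list of TGF-beta, matrix and protease genes had 7 of 26 higher and 8 lower, with a median of 0.06 that became -0.06 under library sizes alone. MMP1, interstitial collagenase, rose by 1.52 and ID3, an inhibitor of basic helix-loop-helix factors, fell by 1.69.

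Of the 140 migration related genes that the study took from the literature 126 were tested, and of these 46 rose and 28 fell, with a median of 0.16. Under library sizes alone the counts were 29 and 35. Its 3 members with the smallest p all fell. AQP3, a water and glycerol channel, was at 63.5, 52.7 and 64.2 CPM in N_2 and 11.0, 13.1 and 9.11 CPM in N_3 (log2 fold change -2.44). MMP13, a collagenase, fell by 2.55 and WNT11, a ligand of non-canonical Wnt signalling, by 2.11. CDH1, the epithelial cadherin, was low in this line and fell by 1.27, from 6.04, 5.33 and 5.16 CPM to 2.07, 2.18 and 2.57 CPM.

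Of 22 genes of cholesterol and fatty acid synthesis 2 rose and 6 fell, with a median of -0.16. The share of calls was 36.4%, against 39.2% of all genes. Without N_3 replicate 2 the counts were 3 and 12, or 68.2% called against 51.4% of all genes. HMGCS1 and FDFT1, which act on the way to squalene, fell by 0.48 and 0.49, whereas FDPS and CYP51A1 of the same pathway rose by 0.43 and 0.32. ABCG1, a cholesterol exporter under the liver X receptor, was at 41.9, 31.6 and 39.5 CPM in N_2 and 9.23, 9.46 and 8.71 CPM in N_3 (log2 fold change -2.04), and MYLIP, which marks the LDL receptor for breakdown, was the other of 7 receptor targets that fell (-0.64). The share of calls among these targets was 28.6%. Without N_3 replicate 2 the counts for these targets were 1 higher and 3 lower (57.1% called). In the list of glycolysis and hypoxia 1 of 21 rose and 7 fell, or 38.1% called against 39.2% of all genes. EGLN3, an oxygen-sensing hydroxylase, led the falls at -1.04, and HK2, a hexokinase, was at 0.27. Of 20 interferon-stimulated genes 3 rose and 8 fell, with a median of -0.25. OAS1, an antiviral synthetase, fell by 1.07 and IRF7, a transcription factor, by 0.74, whereas DDX58, the RNA sensor RIG-I, rose by 0.53, GBP1 by 0.57 and IFI27 by 0.50. Among 18 immediate early and ERK feedback genes 7 rose and 4 fell, with FOSL1 (0.74), DUSP5 (0.67) and PHLDA1 (0.63) among the higher and FOS (-0.62), IER2 (-0.53), DUSP4 (-0.43) and JUN (-0.34) lower.

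**Figure D3:**
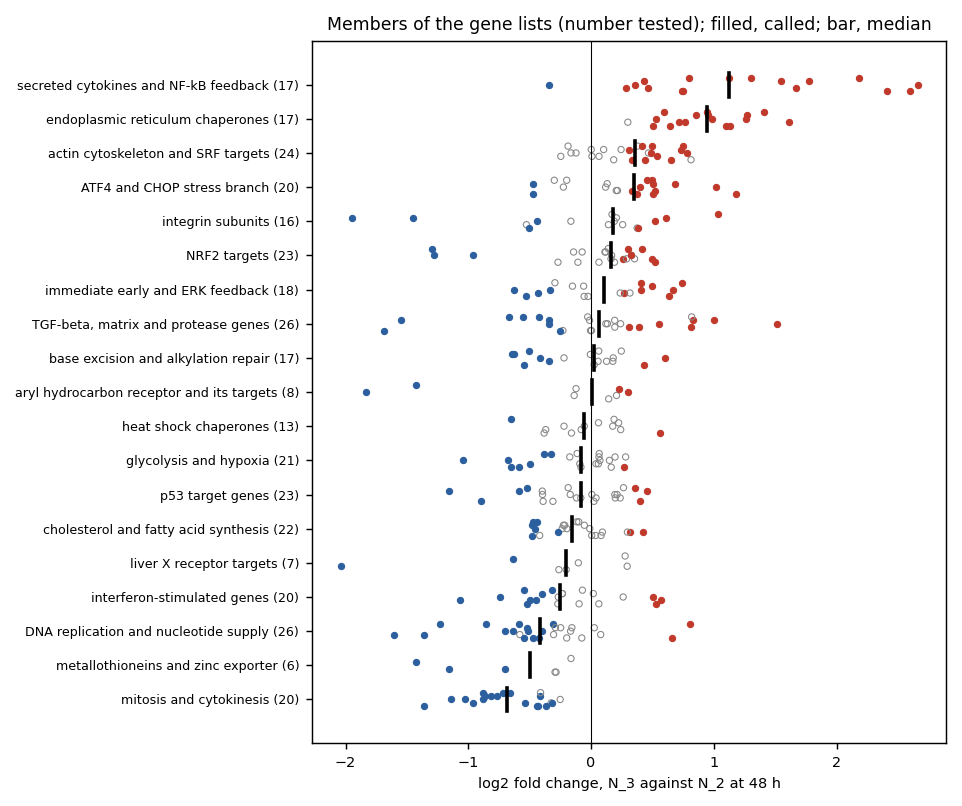
Log2 fold change (N_3 against N_2, 48 h) of the tested members of 19 gene lists, 1 point per gene, with the number tested in parentheses; filled points were called (red higher, blue lower), open points were not, and black bars are medians. Cytokines (median 1.12) and chaperones (0.94) lie highest and mitosis genes (-0.69) lowest.

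The genes with the largest differences included members of these lists, such as CXCL8 and AQP3, and others that are given here. C1QL1, a secreted protein of the C1q family, had the largest fall among genes of at least 5 CPM, from 56.3, 39.7 and 53.5 CPM to 5.00, 7.34 and 4.66 CPM (log2 fold change -3.14, SE 0.186, adjusted p = 5.98e-06). Its mean with CKI and in untreated cells also lay under that of N_2. PTGS1, cyclooxygenase 1, fell by 2.78, CREB3L3, a membrane-bound transcription factor, by 2.65, RAB17, a GTPase of epithelial transport, by 2.58, and EPPK1, an epithelial plakin, by 2.5. ALPP, placental alkaline phosphatase, was the most abundant of this group, at 276, 228 and 254 CPM in N_2 and 39.9, 61.9 and 37.0 CPM in N_3 (log2 fold change -2.45), with reads that may belong to close copies. The solute carriers SLC1A7 and SLC6A12, for glutamate and for betaine, fell by 2.41 and 2.33, HTRA3, a serine protease, by 2.25, and C11orf86 and CLDND2 by 2.66 and 2.30. Among genes that rose, besides the cytokines, G0S2, an inhibitor of triglyceride lipase, was at 72.8, 92.5 and 79.0 CPM in N_2 and 353, 309 and 380.0 CPM in N_3 (log2 fold change 2.09, adjusted p = 5.98e-06). POU2F2, a transcription factor best known from B cells, rose by 1.87 and CD22, a B-cell lectin, by 1.84, from 4.50, 5.01 and 4.96 CPM to 14.6, 21.2 and 16.1 CPM. TUBE1, epsilon-tubulin (1.66), SCG5, a secretory granule chaperone (1.63), CDH4, retinal cadherin (1.62), and TBC1D5, a regulator of endosomal traffic (1.62), completed the genes with the largest rises.

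The same removal was next set beside the other settings, which differ in size of response. At 24 h 5329 of 14507 genes (36.7%; 18.6% higher, 18.1% lower) were called for N_3 against N_2, with N_3 replicate 2 of that time 2-fold away from its group in 891 genes and N_2 replicate 3 in 497, and 5990 were called without that N_3 library. With only the alkaloids present (OO against MOO) 1402 of 14421 (9.72%; 3.82% higher, 5.9% lower) were called and 19 of them exceeded 2-fold. With all other components present (N_Mac against CKI, batch 2) 10540 of 14469 (72.8%; 36.6% higher, 36.2% lower) were called. Because CKI was not fractionated, N_Mac and CKI may differ by handling as well as by macrozamin, and these cannot be told apart. No library is shared between these settings and the main comparison. Across genes, which are not independent replicates, the log2 fold changes correlated with those at 24 h (r = 0.454, 14317 genes) and in whole CKI (r = 0.325, 14023 genes), and hardly with those of OO against MOO (r = 0.0521, 14046 genes). Of 4189 genes called both here and in whole CKI, 2989 (71.4%) had the same sign and 1200 the opposite.

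The chaperone, cytokine and mitosis lists had medians of the same sign in each setting. Called members numbered 7 higher and 0 lower of 17 chaperones at 24 h, 5 and 0 for OO against MOO, and 14 and 1 in whole CKI, where the median was 0.96. For cytokines the counts were 9 and 1 of 16, 5 and 0, and 18 and 0 of 18, with medians of 1.39, 0.15 and 3.86. Mitosis genes had 0 higher and 4, 20 and 20 lower of 20 in the same order, the 4 at 24 h being a share near the 18.1% of all genes called lower at that time. The change was compared by an interaction test, which called 24.1% of genes between the times (13% with a higher signed value here, 11.1% with a lower one), 32.3% against OO and MOO (18.5% and 13.8%) and 49% against whole CKI (26.4% and 22.6%). The signed log2 fold change of 16 of the 17 chaperones was higher here than for OO against MOO, and against whole CKI it was higher for 8 and lower for 7. In the cytokine list it was higher here for 11 genes and lower for none against OO and MOO, whereas against whole CKI it was higher for 2 and lower for 14 of 18. CXCL8 had log2 fold changes of 2.41 here, 2.30 at 24 h, 0.12 (not called) for OO against MOO and 6.75 in whole CKI. For PDIA4 the values were 1.62, 1.46, 0.16 and 1.18, all called.

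**Figure D4:**
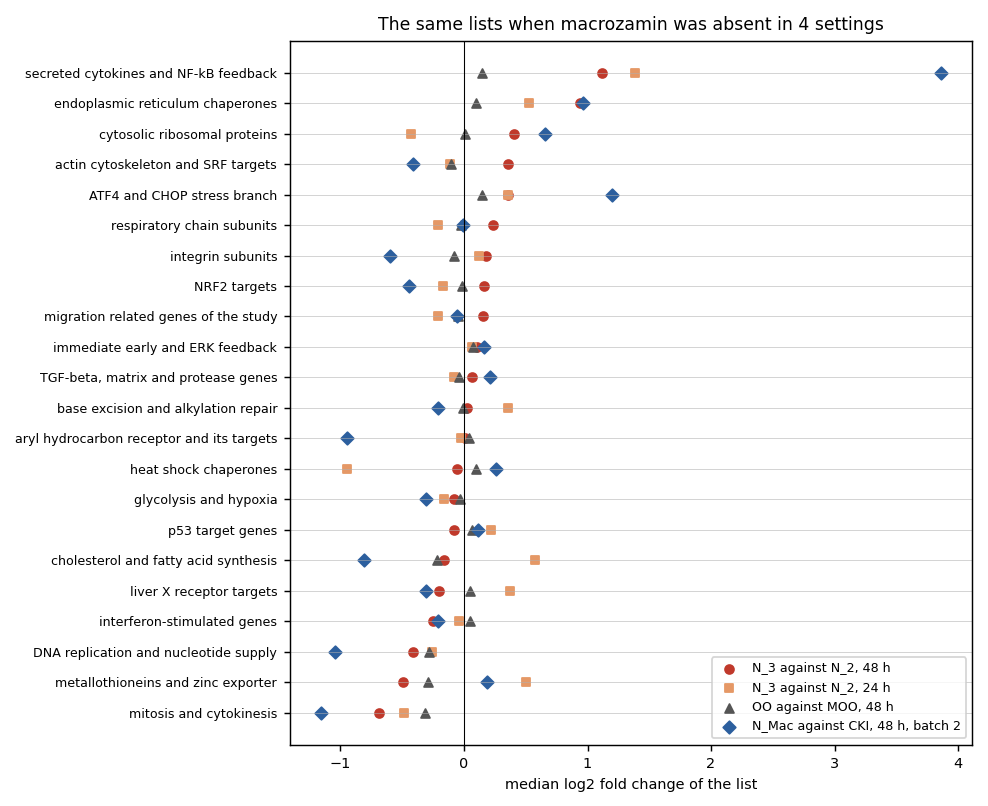
Median log2 fold change of 22 gene lists when macrozamin was absent, in N_3 against N_2 at 48 h (red circles), N_3 against N_2 at 24 h (orange squares), OO against MOO (grey triangles) and N_Mac against CKI in batch 2 (blue diamonds). Mitosis lies left of 0 and chaperones and cytokines right of 0 in each setting, while actin, NRF2 and ribosomal lists change side.

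Some further lists kept the sign of their median. For DNA replication the medians were -0.41 here, -0.26 at 24 h, -0.285 for OO against MOO and -1.04 in whole CKI. For the ATF4 and CHOP branch they were 0.35, 0.36, 0.14 and 1.20 in the same order. Several lists did not keep their direction. Ribosomal protein genes had 2 higher and 24 lower of 82 at 24 h, and the difference between the times was called for 57, all with the larger value at 48 h. Under library sizes alone, however, the share of all time differences that were higher at 48 h moved from 54% to 12.7%. Actin genes were 11 higher and 0 lower here, or 11 and 2 without N_3 replicate 2. They had 1 and 10 for OO against MOO and 5 and 18 in whole CKI. The difference to whole CKI was called for 19 upward and 2 downward of 25. ACTG1 rose by 0.78 here and fell by 0.48 and 1.27 in those settings. Cholesterol genes had 9 higher and 0 lower at 24 h and 1 and 21 in whole CKI. CYP1A1 fell here and in whole CKI (-2.86), with values of -0.17 at 24 h and 0.23 for OO against MOO that did not pass the test. ABCG1 fell by 2.04 here and rose by 1.71 in whole CKI, and GDF15 fell by 0.89 here and rose by 0.41 for OO against MOO and by 1.58 in whole CKI. For ITGA3 the rise of 1.03 stood against a fall of 0.42 in whole CKI, and neither 24 h (0.36) nor OO against MOO (-0.08) passed the test. In whole CKI the batch and the setting cannot be told apart, beyond a batch shift common to both of its groups, which cancels. A difference in handling between N_Mac and unfractionated CKI would not cancel, and it was not tested.

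**Figure D5:**
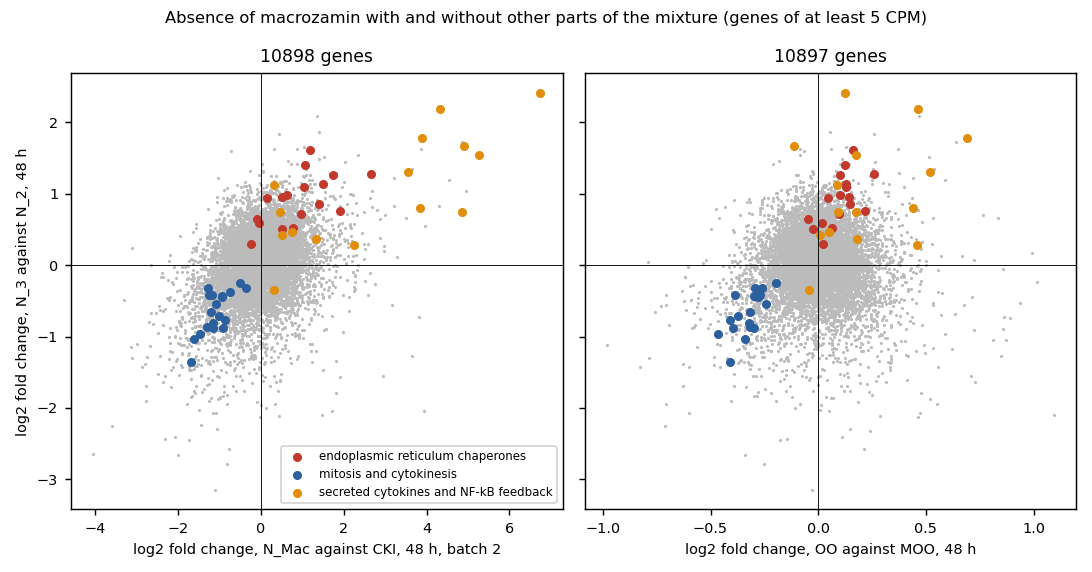
Log2 fold change of N_3 against N_2 at 48 h over that of N_Mac against CKI (left, 10898 genes) and of OO against MOO (right, 10897 genes, with a narrower horizontal axis), 1 point per gene of at least 5 CPM. Mitosis genes (blue) lie in the lower left of both panels, chaperones (red) mostly in the upper right, and cytokines (orange) reach much further right in whole CKI.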

How the data were processed

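Libraries were made from poly(A) RNA with random primers and sequenced as paired-end 150-base reads. The deposited table holds gene counts made by the authors, with 27978 genes in rows and 54 libraries in columns, of which 3798 genes had no count. The submitters' processing notes name FastQC 0.11.4, Trim Galore 0.3.7, STAR 2.5.3a, Subread 1.5.2 with featureCounts, edgeR 3.22.3 and hg19. No strand setting was given in the sources used here, so genes that overlap on opposite strands, and near-identical copies, cannot be told apart.

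Counts were tested in R 4.3.3 with edgeR 4.0.16 (filterByExpr, TMM, quasi-likelihood test) using the 6 libraries of a comparison, or 12 for interactions and 9 for the comparisons with untreated cells, and p-values were adjusted by Benjamini-Hochberg over all genes tested, with a threshold of 0.05. DESeq2 1.42.0 was an alternative. Standard errors were the log2 fold change divided by the root of F. Levels are CPM scaled by TMM over all 54 libraries. A test of 3 against 3 by exact permutation cannot go below 0.1, and none is given. On simulated counts with 200 genes changed by 2-fold, edgeR recovered 91.5% for the 48 h comparison and 78% for the interaction with whole CKI. DESeq2 recovered 84% and 75%. The simulation gave every gene the same spread and held no library that stood apart, so recovery in the real counts may differ. Depth ran from 17673537 to 26138924 reads over the series, and counting error is only part of the spread between libraries.

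Replicate numbers were checked for pairing at 48 h by correlating what remained of each library once its group mean was taken off (-0.204, -0.28 and -0.0249 for replicates 1 to 3), which gives no pairing, so the replicate block is an alternative only. Named genes were the 12 with the largest called change in each direction (mean of at least 5 CPM, groups that do not overlap), up to 3 per list with the smallest p (at least 1 CPM), CYP1A1, CDKN1A, MGMT, ACTB and CDH1, and up to 6 per interaction; further list members and settings are given as context and were chosen with their values seen. Members, lists and rules were chosen with earlier results of these data known. Alternatives were other scalings, filters, tools, samples, thresholds and each library left out. Leaving N_3 replicate 2 out of the list counts was chosen after seeing the data. Results of some genes that these rules name are not reported here.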

Additional observations from a re-analysis of the deposited data

Results flagged for a closer look

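The fold change on removal of macrozamin differed between settings by an interaction test (edgeR quasi-likelihood, Benjamini-Hochberg over all genes tested). Values below are the log2 fold change of N_3 against N_2 at 48 h minus that of the other setting, and genes with large differences are given.

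Between 48 h and 24 h, 3667 of 15203 genes differed. Among the largest were 2.92 for RPPH1 (adjusted p = 0.00998), 2.66 for SHISA2 (0.00204), -2.66 for DOC2A (0.00463), 2.65 for DNPH1 (0.00132) and 2.61 for RNR2 (0.0176). RNR2 is the mitochondrial ribosomal RNA that was high in N_3 replicate 2 at 48 h, and RPPH1 is a non-polyadenylated RNA. Without N_3 replicate 2 at 24 h, 5061 genes differed.

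Between these mixtures and OO against MOO, 4946 of 15294 genes differed. The largest were C1QL1 at -3.1 (adjusted p = 2.34e-06), RAB17 at -2.78 (1.26e-05), SLC6A12 at -2.56 (0.000976), TJP3 at -2.53 (2.68e-05), UNC5B at -2.39 (1.87e-05) and C11orf86 at -2.31 (1.6e-05), all with the lower value in the mixtures.

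Between these mixtures and whole CKI, 7506 of 15321 genes differed. The largest were S100P at -4.54 (adjusted p = 7.65e-07), CXCL8 at -4.33 (6.9e-09), PSG8 at -4.25 (9.59e-10), IL6 at -4.11 (6.9e-09), F2RL3 at 4.08 (2.35e-05) and LCN2 at -3.92 (7.3e-08). PSG8 belongs to a family of near-identical genes.

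The next count leaves out the genes just listed for whole CKI. Among the other named genes reported here, 13 were called in both of these settings with opposite signs and with a called difference. These differences were -4.5 for COX6B2, -3.74 for ABCG1, -3.56 for WNT11, -2.47 for GDF15, 2.06 for ACTG1, -1.86 for BTG2, 1.59 for NQO1, 1.47 for ITGA3, -1.35 for HMOX1, 1 for ACTB, 0.98 for SHISA2, 0.94 for DDX58 and -0.8 for MYLIP. For ABCG1 the log2 fold change was -2.04 without macrozamin in these mixtures and 1.71 in whole CKI, and for COX6B2 it was -1.56 and 2.95. Neither the batch of the libraries nor the handling of N_Mac and unfractionated CKI was tested as a part of these differences.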

How the results depend on the processing

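Of 1377 recomputed values of 106 named genes, 1343 kept their direction and side of the threshold, 11 lost a call, 19 gained one and 4 changed sign. Of 97 called genes 93 kept the call in every alternative run. The exceptions were NQO1, MT1M, SHISA2 and IL6. Signs changed for the log2 fold change of GBA2 under library sizes alone (-0.014), for the log2 fold change of CDKN1A under library sizes alone (-0.10) and without N_3 replicate 2 (-0.0348, in a range up to 0.0565 over the libraries left out), and for the log2 fold change of DOC2A without N_3 replicate 2 (0.0521, in a range down to -0.555). Requiring a 2-fold change as well left 1201 genes for the 48 h comparison, 2433 at 24 h, 19 for OO against MOO, 2151 for N_Mac against CKI, 1779, 1014 and 2357 for the interactions with time, alkaloids alone and whole CKI, and 5100 and 3986 for N_2 and N_3 against untreated cells. Leaving out 1 library gave 3813 (without N_2 replicate 3) to 7776 calls (without N_3 replicate 2) at 48 h. For the others the ranges were 2561 to 5990 at 24 h, 855 to 2246 for OO against MOO, 10031 to 10387 for N_Mac against CKI, 1923 to 5273, 3974 to 6654 and 6803 to 8371 for the interactions in that order, and 10538 to 12191 and 9350 to 10923 against untreated cells. Single libraries moved a count by over 1.5 times at 48 h (3813 without N_2 replicate 3), at 24 h (3261 without N_3 replicate 3, 2561 and 3365 without N_2 replicates 1 and 2), for OO against MOO (888, 855 and 888 without OO replicates 1 to 3, 2246 and 918 without MOO replicates 2 and 3) and for the time interaction (2078 and 2178 without N_2 replicates 2 and 3 at 48 h, 1923 and 2348 without N_2 replicates 1 and 2 at 24 h). The cause was not tested. With the replicate block 4879 genes were called at 48 h, 6339 at 24 h and 1728 for OO against MOO. The replicate numbers gave no pairing of N_3 and N_2 at 48 h. At 24 h the correlations for equal numbers were -0.192, 0.463 and 0.345 for replicates 1 to 3. Those for unequal numbers ran from -0.474 to 0.443, and pairing at 24 h was not settled. DESeq2 called 5730 at 48 h. Under library sizes alone the share of calls that were higher moved from 50.6% to 75.1% at 24 h (4508 higher, 1491 lower, median of all genes 0.32), from 57.2% to 32.8% for the interaction with the alkaloids alone and from 53.8% to 43.1% for that with whole CKI. With 3 libraries a group, differences in genes under 1 CPM were often not detectable.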

Other observations

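Groups of genes that share a symbol were counted after their values had been seen, and they carry no test. Over all genes tested for N_3 against N_2 at 48 h, 19.6% were called higher and 19.5% lower. Cytosolic aminoacyl-tRNA synthetases, which charge tRNAs with amino acids, had 16 of 18 called higher in N_3 than in N_2 at 48 h, 0 lower and a median log2 fold change of 0.66. IARS, the isoleucine enzyme, was at 105, 131 and 115 CPM in N_2 and 304, 321 and 297 CPM in N_3 (1.40), LARS rose by 1.14, FARSB by 1.41 and WARS by 1.03. RARS (-0.01) and CARS (0.15) were the members not called. Genes with symbols that begin with EIF and a number, most of them translation initiation factors, had 25 higher and 1 lower of 52. This symbol rule also took in genes that are not initiation factors, such as EIF2AK4 (0.57, called), EIF4EBP1 and EIF3J-DT.

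Histone genes had 0 higher and 23 lower of 30, with a median of -1, and 15 were lower by more than 2-fold. HIST1H1C, a linker histone, was at 491, 461 and 481 CPM in N_2 and 254, 174 and 284 CPM in N_3. Most histone transcripts lack a poly(A) tail, and the libraries were made from poly(A) RNA. Of 11 WNT ligands 8 were lower and 0 higher, and of 27 collagen genes 12 were lower and 4 higher. These 27 include COL4A3BP (-0.18, not called), which is not a collagen and was taken in by its symbol. Zinc finger genes of the ZNF series, with antisense entries such as ZNF205-AS1 taken in by symbol, had 20 higher and 109 lower of 482 here. In N_Mac against CKI they had 233 higher and 85 lower of 484. Their shares of calls were 26.8% and 65.7%, under the 39.2% and 72.8% of all genes in these comparisons.

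The direction of the calls followed the level of the gene. Of 1376 genes under 1 CPM 30 were higher and 318 lower, with a median of -0.43, whereas of 2371 genes above 100 CPM 718 were higher and 280 lower, with a median of 0.13.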
